A study of Mus musculus with 9 samples.

Results

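Serum fragments of the initiator methionine tRNA (iMet-CAT), the elongator methionine tRNA (Met-CAT) and the selenocysteine tRNA (SeC-TCA) were described here. A read was assigned to 1 of these tRNAs when every alignment it had was on references of that tRNA, whatever its level. This gave 1286 distinct sequences (fragments) and 9613 reads, out of 41240 fragments and 555585 reads on tRNAs in all. iMet-CAT held 452 fragments and 4041 reads, Met-CAT 652 fragments and 5203 reads, and SeC-TCA 182 fragments and 369 reads. Another 42 reads aligned to 1 of the 3 and to a further tRNA, and were left out.

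Small RNA of mouse blood serum was sequenced with a kit for tRNA fragments, at a time labelled week 20. The groups were mice on a high fat diet with SalB (salvianolic acid B, the plant compound under study), mice on a high fat diet alone, and mice on a normal diet, with 3 libraries each. The word atherosclerosis stands in the labels of every library, those of the normal diet included. The titles of the normal diet libraries carry the strain name C57, and neither the strain of the other mice nor the dose and route of SalB is given in the sources used here. Diet and strain therefore cannot be told apart in comparisons with the normal diet. Nothing says that the 3 libraries of a group came from separate animals, so the p-values rest on variation among libraries that may be technical. In serum, fewer cells shedding a fragment and less of it shed per cell cannot be told apart.

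The initiator tRNA carries the methionine that starts every cytosolic protein, and the elongator tRNA carries the methionines placed inside the chain. Both read the same codon, and differ in sequence and in the proteins that bind them. The selenocysteine tRNA reads certain UGA codons, which otherwise stop translation, and so inserts selenocysteine into selenoproteins such as glutathione peroxidases. Each tRNA folds into a D arm, an anticodon arm, a variable region and a T arm, and ends in a CCA tail that is added after transcription. Nucleases cut tRNAs within these loops, and the pieces are found in blood.

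The reads of the 3 tRNAs came from different places on the molecule. To show where, 1 sequence each of the initiator and the selenocysteine tRNA is printed 5′ to 3′ in DNA letters. Each was rebuilt from the aligned reads and their listed mismatches, with stretches where many reads lay in capitals. These are positions 16 to 31 and 54 to 75 of iMet-CAT and 1 to 19 of SeC-TCA, counted from 1 at the mature 5′ end. Most Met-CAT reads lay at positions 34 to 54, shown in its fragments.
iMet-CAT-1-1: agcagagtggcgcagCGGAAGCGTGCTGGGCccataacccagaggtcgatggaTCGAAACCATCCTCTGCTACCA
SeC-TCA-1-1: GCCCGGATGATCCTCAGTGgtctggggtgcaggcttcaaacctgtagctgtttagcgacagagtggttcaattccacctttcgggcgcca
The anticodon lies at positions 33 to 35 of iMet-CAT, 34 to 36 of Met-CAT and 36 to 38 of SeC-TCA. Fragments whose values are described further on follow, for comparison of their ends. In iMet-CAT fragments the capitals mark position 31 or the bases of the CCA tail, in Met-CAT fragments the anticodon bases or a mismatched last base, and in SeC-TCA fragments positions 16 to 19.
iMet-CAT 16 to 31: cggaagcgtgctgggC
iMet-CAT 16 to 30: cggaagcgtgctggg
iMet-CAT 54 to 74: tcgaaaccatcctctgctaCC
iMet-CAT 54 to 75: tcgaaaccatcctctgctaCCA
iMet-CAT 54 to 72: tcgaaaccatcctctgcta
Met-CAT 34 to 54: CATaatctgaaggtcctgagt
Met-CAT 36 to 54: Taatctgaaggtcctgagt
Met-CAT 40 to 54: ctgaaggtcctgagt
Met-CAT 41 to 54: tgaaggtcctgagt
Met-CAT 36 to 54, last base C: taatctgaaggtcctgagC
Met-CAT 36 to 54, last base G: taatctgaaggtcctgagG
SeC-TCA 1 to 19: gcccggatgatcctcAGTG
SeC-TCA 1 to 18: gcccggatgatcctcAGT
SeC-TCA 1 to 15: gcccggatgatcctc

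Initiator reads fell into 2 sets. Of the 4041 iMet-CAT reads, 39.3% started at position 16, in the D arm, and 46.1% started at position 54, and these sites together gave 85.4%. Reads from position 16 ended mostly before the anticodon, with 810 reads of the tRNA ending at 31 and 489 at 30. Reads from position 54 ran to the 3′ end, where 813 ended at 74, 472 at 72, 285 at 75 (the complete CCA tail) and 246 at 71. The 5′ end was nearly bare, with 22 reads (0.544%) starting at the first base. A smaller set of 87 reads ran from 16 to positions 53 to 55, across the anticodon and up to the second start site, and was seen in all 9 libraries.

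Most elongator reads ran from the anticodon arm through the variable region into the T arm. Read starts were at 36 in 34.9% of the 5203 Met-CAT reads, on the last anticodon base, and at 34 in 26.4%, on its first base. A further 587 reads started at 40 and 352 at 41. Of all Met-CAT reads, 73.2% ended at position 54. In both tRNAs this border stands against the letters TCGA of the T loop, which begin at 54 in the 3 iMet-CAT references and at 55 in Met-CAT-1-1 to Met-CAT-4-1. A further TCGA begins at 46 in the iMet-CAT references, where 2 reads began. The 2 tRNAs kept opposite sides of the T loop letters: 46.1% of iMet-CAT reads started at the T of TCGA and 0.965% ended on the base before it, while 73.2% of Met-CAT reads ended on the base before it and 0.442% started at its T. Each of these 4 ends was seen in all 9 libraries.

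Selenocysteine reads were few and more spread out. Of 369 reads, 146 (39.6%) started at the first base, and 121 of these were 14 to 24 bases long. SalB replicate 2 alone held 85 of the 146 and 83 of the 121. Another 23 started at the first base and ended at 35 or 37, at the border of or inside the anticodon. A set of 47 reads started at 14 to 18 and ended at 46 to 52, and 30 reads lay at the 3′ end. In all, 193 reads (52.3%) reached neither end.

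**Figure D1:**
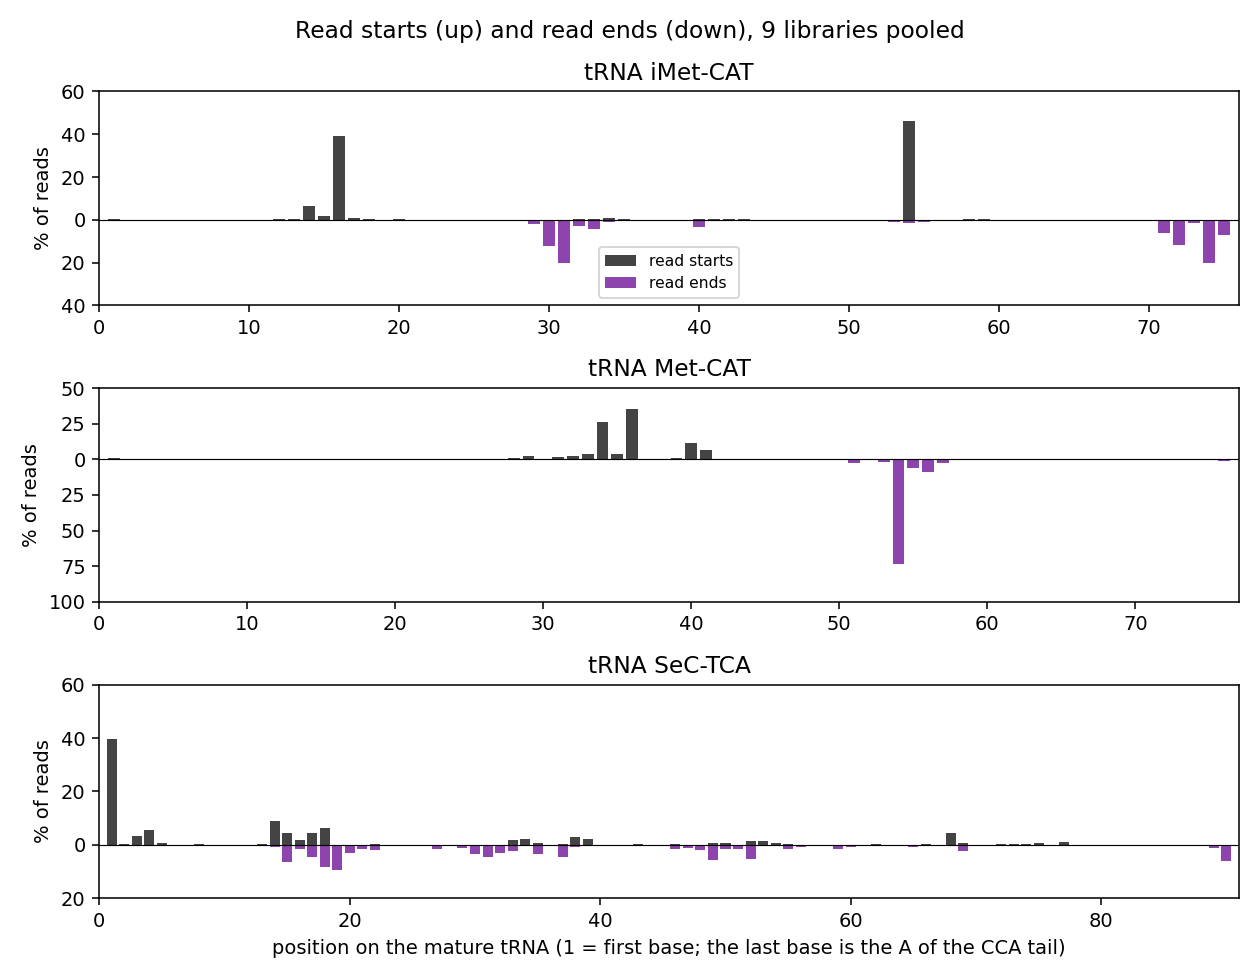
Share of each tRNA's reads that start (bars up, dark) or end (bars down, purple) at each position, in percent, with the reads of 9 libraries pooled, for iMet-CAT, Met-CAT and SeC-TCA. iMet-CAT starts stand at 16 and 54, Met-CAT ends stand at 54, and SeC-TCA starts stand at 1. Of the 146 SeC-TCA reads that start at 1, 85 came from SalB replicate 2.

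A fragment counted as 5′ when it started at the first base, as 3′ when it ended within the last 5 bases, and as internal otherwise. Origins were ranked among 50 nuclear tRNA families with at least 500 reads, as a description. Sets of reads shared between families were counted among the 50. On references of other tRNAs whose rebuilt sequence did not end in CCA, no read could count as 3′. The ranks and medians are therefore rough. Met-CAT had 97.2% internal reads on average over the libraries, the 6th highest share, where the median was 40.4%. iMet-CAT had 52.6% 3′ reads, close to the median of 46.6%. Its 5′ share of 0.661% and that of Met-CAT, 1.04%, stood under the median of 4.21%. SeC-TCA had too few reads for this ranking.

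The references of a tRNA differ by single bases. iMet-CAT-2-1 differs from iMet-CAT-1-1 by G23A, where the first base is that of iMet-CAT-1-1. Of 2037 iMet-CAT reads that cover position 23, 4 aligned to iMet-CAT-2-1 alone, which is 0.196%. The Met-CAT references differ inside the main fragment, so that its reads tell Met-CAT-1-1 from the others. Of 5203 Met-CAT reads, 903 aligned to Met-CAT-1-1 alone and 4230 did not align to it.

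Levels were compared in normalised CPM, which are reads scaled to a common library size by trimmed means over the 733 fragments abundant enough to test. Reads on tRNAs ran from 28191 to 156333 per library, and the 3 tRNAs made up 1.32% to 2.71% of them. SalB replicate 2 stood apart: 42.0% of its reads were on the precursor of Leu-CAG-3-1, against 0.0177% to 2.55% in the other libraries. Its scaled library size was 0.408 of its tRNA reads, from a trimmed-mean factor of 0.471 over the tested fragments. The scaling matters for every level with SalB. When libraries were scaled by their total tRNA reads, the median log2 fold change of all 733 fragments moved by -0.85 for SalB against high fat diet and by -0.88 for SalB against normal diet. The split of calls over all fragments moved with it, to 53 higher and 272 lower for SalB against high fat diet, where the main scaling gave 129 higher and 122 lower, and to 72 higher and 276 lower for SalB against normal diet, where it gave 150 higher and 136 lower.

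Initiator and elongator fragments were both higher in SalB serum under the main scaling. Of the 3 tRNA sums, iMet-CAT and Met-CAT were called higher with SalB than on high fat diet, where 26.2% of all 103 tRNA sums tested were called higher and 4.85% lower (limma-voom, called at an adjusted p under 0.05 after Benjamini and Hochberg). The same sums were called higher with SalB than on normal diet, where 28.2% of all sums were called higher and 5.83% lower. For high fat diet against normal diet 0 of the 3 sums and 0% of all sums passed. Of these 3 sums 1 had an unadjusted p under 0.05 there, as did 5.83% of all sums, and limma on log2 values also called 0 of the 3. Counted by groups that do not overlap, 2 of the 3 were higher with SalB than on high fat diet (39.8% of all sums), 2 with SalB than on normal diet (41.7%) and 1 in the high fat diet libraries than in those of the normal diet (10.7%).

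The summed initiator fragments had 9957, 17861 and 10387 normalised CPM in SalB libraries, 5491, 6570 and 5370 on high fat diet, and 6020, 6856 and 4674 on normal diet. Every SalB library stood above all others, and the 2 diets overlapped. The means were 12735 ± 4445 with SalB, 5810 ± 661 on high fat diet and 5850 ± 1101 on normal diet (SD, n = 3 each). iMet-CAT rose with SalB by a log2 fold change of 1.10 against high fat diet (SE 0.28, limma-voom adjusted p = 0.0211) and of 1.12 against normal diet (SE 0.27, limma-voom adjusted p = 0.0142). Scaled by total reads these values were 0.31 (limma-voom adjusted p = 0.526) and 0.35 (limma-voom adjusted p = 0.423), with no call. Without SalB replicate 2 they were 0.93 and 0.95 and both stayed called (limma-voom adjusted p = 0.00707 and 0.00467). The call against high fat diet was lost without high fat diet replicate 1, 2 or 3 (limma-voom adjusted p = 0.0842, 0.0650 and 0.0717), and that against normal diet without normal diet replicate 3 (limma-voom adjusted p = 0.0712). High fat diet and normal diet gave a log2 fold change of 0.019 (SE 0.29, limma-voom adjusted p = 0.986).

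The summed elongator fragments had 15250, 16419 and 16265 normalised CPM with SalB, 10444, 7809 and 9570 on high fat diet, and 6562, 4674 and 6392 on normal diet. The 3 groups did not overlap, with SalB highest and normal diet lowest. The means were 15978 ± 635 with SalB, 9274 ± 1342 on high fat diet and 5876 ± 1044 on normal diet (SD, n = 3 each). Met-CAT rose with SalB by 1.45 against normal diet (SE 0.20, limma-voom adjusted p = 0.000650), and by 0.78 against high fat diet (SE 0.20, limma-voom adjusted p = 0.0211), a direction that turned to -0.010 under scaling by total reads. Against normal diet that scaling gave 0.69 with no call (limma-voom adjusted p = 0.178). The call against high fat diet was lost without high fat diet replicate 1, 2 or 3 (limma-voom adjusted p = 0.0594, 0.0867 and 0.0695). The log2 fold change of high fat diet against normal diet was 0.67 (SE 0.21), with an unadjusted p of 0.0106 and a limma-voom adjusted p of 0.388, so it did not pass. A fit of the 6 diet libraries alone gave 0.72 and a call (limma-voom adjusted p = 0.0494).

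The summed selenocysteine fragments had 645, 2587 and 423 normalised CPM with SalB, 449, 519 and 460 on high fat diet, and 280, 482 and 443 on normal diet. SalB replicate 2 was high and SalB replicate 3 lay among the other groups. The log2 fold changes were 1.00 for SalB against high fat diet (SE 0.62, limma-voom adjusted p = 0.225), 1.26 for SalB against normal diet (SE 0.62, limma-voom adjusted p = 0.129) and 0.26 for high fat diet against normal diet (limma-voom adjusted p = 0.939). No comparison passed, and the 95% interval of SalB against high fat diet reached 1.39 to either side. Without SalB replicate 2 the values against high fat diet and normal diet were 0.32 and 0.57, and without SalB replicate 3 the comparison with normal diet gave 1.85 and passed (limma-voom adjusted p = 0.0285).

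**Figure D2:**
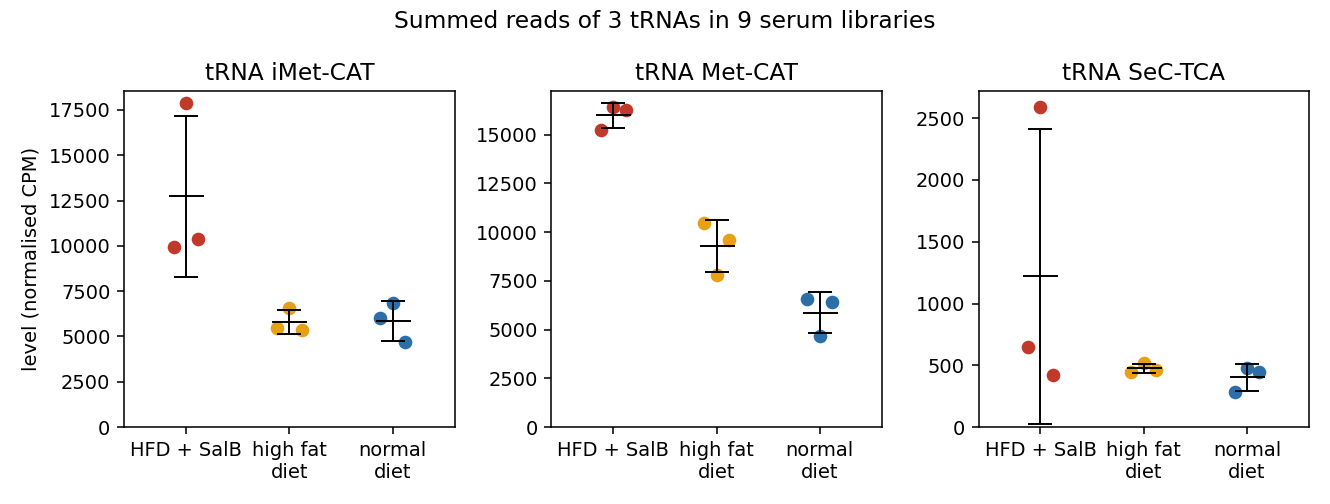
Level of the summed fragments in normalised CPM for iMet-CAT, Met-CAT and SeC-TCA, with 1 point per library and bars for the mean and SD of 3 libraries, for high fat diet with SalB (HFD + SalB), high fat diet and normal diet. SalB libraries stand highest for iMet-CAT and Met-CAT in this scaling, although Met-CAT turned to -0.010 against high fat diet when scaled by total reads, and 1 SalB library carries the SeC-TCA mean.

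Split by origin, the internal fragments of the initiator were called and its 3′ fragments were not. The 2 fold changes were not tested against each other. As a share of iMet-CAT reads, internal reads stood 14.5 percentage points higher with SalB than on high fat diet and 27.1 higher than on normal diet. Each exact permutation p was 0.1 (adjusted 0.383 and 0.287), the smallest that 3 against 3 libraries allow, so neither could pass. SalB replicate 1, at 47.6%, lay close above the highest high fat diet library, at 46.9%. SalB replicate 2 stood at 74.9%, and 226 of its 853 internal reads started at 14. Of the 4 origin sums of these tRNAs that could be tested, internal iMet-CAT and internal Met-CAT were called higher with SalB than on high fat diet, where 20.6% of all 170 origin sums were called higher and 6.47% lower. The same sums were called higher with SalB than on normal diet, where 27.6% of all were called higher and 8.82% lower. For high fat diet against normal diet 0 of 4 and 0% of all passed in limma-voom and 0 of 4 in limma on log2 values, while 1 of the 4 and 10% of all had an unadjusted p under 0.05. The groups did not overlap, and the first named was higher, in 3 of the 4 for SalB against high fat diet (31.8% of all), 3 of the 4 for SalB against normal diet (35.3%) and 2 for high fat diet against normal diet (13.5%). Internal iMet-CAT reads had 4739, 13376 and 6177 normalised CPM with SalB, 2514, 3083 and 2455 on high fat diet, and 1851, 2068 and 1857 on normal diet. SalB stood highest and normal diet lowest, with no overlap. The log2 fold change was 1.48 for SalB against high fat diet (SE 0.37, limma-voom adjusted p = 0.0159), a call lost without high fat diet replicate 1 or 3 (limma-voom adjusted p = 0.0677 and 0.0615), and 1.95 for SalB against normal diet (SE 0.37, limma-voom adjusted p = 0.00305). Scaled by total reads, the value against high fat diet was 0.69 and did not pass (limma-voom adjusted p = 0.103). Internal Met-CAT reads, nearly all of that tRNA, gave 0.78 and 1.47 against the 2 diets, the first lost without high fat diet replicate 1, 2 or 3 (limma-voom adjusted p = 0.0633, 0.117 and 0.0790). Internal SeC-TCA reads gave 0.86 and 1.38, with no call (limma-voom adjusted p = 0.221 and 0.0674). The 3′ reads of iMet-CAT had 5126, 4454 and 4210 normalised CPM with SalB, 2933, 3371 and 2858 on high fat diet, and 4169, 4759 and 2780 on normal diet, and SalB libraries overlapped with the normal diet. Their log2 fold changes were 0.59 against high fat diet (limma-voom adjusted p = 0.113) and 0.29 against normal diet (limma-voom adjusted p = 0.404), and turned to -0.15 and -0.45 when scaled by total reads.

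Single fragments were tested next, of which 14 of the 1286 passed the filter on low counts: 7 of iMet-CAT with 50.7% of its reads, 7 of Met-CAT with 46.6%, and 0 of SeC-TCA. With SalB against high fat diet 3 of the 14 were called higher (1 without high fat diet replicate 2) and 0 lower, where 17.6% of all 733 fragments were called higher and 16.6% lower. With SalB against normal diet 7 were called higher (4 without SalB replicate 2 or normal diet replicate 3) and 0 lower, where 20.5% of all were called higher and 18.6% lower. For high fat diet against normal diet 0 of the 14 and 0% of all passed in limma-voom and in limma on log2 values, and 2 of the 14 and 11.9% of all had an unadjusted p under 0.05. Without overlap of the groups, 7 of the 14 were higher with SalB than on high fat diet (25% of all 733), 9 with SalB than on normal diet (24.1%) and 3 in the high fat diet libraries than in those of the normal diet (11.6%), where 2 were lower (12.6%). The median log2 fold change of the 14 was 0.56, 1.02 and 0.47 in these 3 comparisons, and that of all 733 was -0.15, -0.10 and 0.01. The filter favours fragments high in 1 group, so these counts describe the fragments and support nothing further. At the edge of the filter, the initiator fragment from 54 to 71 passed with 162 reads and its C74A form from 54 to 74, with 106 reads, did not. For the elongator a form with 72 reads passed, having enough of them in each of 3 libraries, and that from 35 to 54, with 106 reads, did not.

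The initiator fragment from 16 to 31 (cggaagcgtgctgggC) had the largest log2 fold changes of the 7 initiator fragments in both comparisons with SalB. Its levels were 774, 2713 and 1719 normalised CPM with SalB, 449, 576 and 307 on high fat diet, and 337, 340 and 379 on normal diet. All SalB libraries lay above all others, with the first of them nearest. It rose with a log2 fold change of 1.84 against high fat diet (SE 0.45, limma-voom adjusted p = 0.0106) and 2.10 against normal diet (SE 0.46, limma-voom adjusted p = 0.00483), and without SalB replicate 2 with 1.52 and 1.77. Scaled by total reads, the change against high fat diet was 1.06 and not called (limma-voom adjusted p = 0.0940).

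The form that is 1 base shorter (cggaagcgtgctggg) had 498, 815 and 673 normalised CPM with SalB, 359, 576 and 499 on high fat diet, and 280, 283 and 342 on normal diet. SalB and high fat diet overlapped. Its log2 fold change was 0.48 against high fat diet (limma-voom adjusted p = 0.275), a direction that turned to -0.31 when scaled by total reads, and 1.07 against normal diet (SE 0.34, limma-voom adjusted p = 0.0297), a call lost without SalB replicate 2 (limma-voom adjusted p = 0.0531) and without each normal diet library in turn (limma-voom adjusted p from 0.0512 to 0.0884). By total reads that value was 0.32 and did not pass.

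The T arm fragments of the initiator gave no call. The form from 54 to 74 (tcgaaaccatcctctgctaCC) had 959, 972 and 822 normalised CPM with SalB, 658, 778 and 710 on high fat diet, and 1122, 1218 and 702 on normal diet. SalB libraries lay above the high fat diet and within the range of the normal diet. Its log2 fold changes were 0.36 for SalB against high fat diet (limma-voom adjusted p = 0.377), which turned to -0.42 when scaled by total reads, -0.08 for SalB against normal diet (limma-voom adjusted p = 0.854) and -0.45 for high fat diet against normal diet (limma-voom adjusted p = 0.619). The form with the complete tail (tcgaaaccatcctctgctaCCA) averaged 467 ± 173 normalised CPM with SalB, 305 ± 69.9 on high fat diet and 446 ± 130 on normal diet (SD, n = 3 each). The form without the tail, from 54 to 72, averaged 1085 ± 339, 746 ± 186 and 611 ± 181 in the same groups, and SalB did not pass against high fat diet (limma-voom adjusted p = 0.286) or normal diet (limma-voom adjusted p = 0.0853).

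Some longer fragments from position 16 failed the filter and are given for their reads alone, chosen after their values were seen. That from 16 to 33, which ends on the first anticodon base, had 11, 34 and 6 reads with SalB, 1, 0 and 1 on high fat diet, and 1, 1 and 1 on normal diet. Per scaled library size, its SalB libraries stood at 203, 533 and 149 normalised CPM, and no library of either diet stood above 28.3. By contrast that from 16 to 43 had 0, 2 and 0 reads with SalB, 7, 2 and 1 on high fat diet, and 7, 1 and 4 on normal diet.

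The elongator fragment with most reads (Taatctgaaggtcctgagt, 991 reads) starts at the last anticodon base. It had 2766, 3387 and 3263 normalised CPM with SalB, 1811, 1239 and 1841 on high fat diet, and 1140, 822 and 1330 on normal diet. SalB libraries lay above all others and the diets overlapped. It rose by 1.51 against normal diet (SE 0.30, limma-voom adjusted p = 0.00296) and by 0.95 against high fat diet (SE 0.30, limma-voom adjusted p = 0.0296). The call against high fat diet was lost without each high fat diet library in turn (limma-voom adjusted p from 0.0607 to 0.124). Scaled by total reads, the change was 0.18 against high fat diet and 0.78 against normal diet, neither called (limma-voom adjusted p = 0.782 and 0.191).

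The form with the whole anticodon (CATaatctgaaggtcctgagt) had 1696, 2258 and 1868 normalised CPM with SalB, 1571, 605 and 901 on high fat diet, and 841, 708 and 693 on normal diet. Its SalB libraries stood above all others. It rose by 1.37 against normal diet (SE 0.36, limma-voom adjusted p = 0.0120), and against high fat diet the log2 fold change of 0.99 just missed the threshold (SE 0.36, limma-voom adjusted p = 0.0502). Scaled by total reads, the change against normal diet was 0.62 and did not pass (limma-voom adjusted p = 0.317). The same span on Met-CAT-1-1 alone, with 148 reads, was not called in either comparison with SalB. Its log2 fold changes were -0.92 against high fat diet and -0.15 against normal diet (limma-voom adjusted p = 0.192 and 0.854).

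The short form that starts past the anticodon at 40 (ctgaaggtcctgagt) had 959, 862 and 1993 normalised CPM with SalB, 479, 202 and 403 on high fat diet, and 243, 85.0 and 305 on normal diet. All SalB libraries stood above all others. It rose by 1.68 against high fat diet (SE 0.46, limma-voom adjusted p = 0.0166), a call lost without high fat diet replicate 2 (limma-voom adjusted p = 0.0630) and when scaled by total reads (0.93), and by 2.34 against normal diet (SE 0.51, limma-voom adjusted p = 0.00469). The form that starts 1 base later, at 41, had 313, 470 and 498 normalised CPM with SalB, 643, 259 and 556 on high fat diet, and 243, 85.0 and 259 on normal diet. Its SalB and high fat diet libraries overlapped, and the log2 fold change of -0.17 between them did not pass (limma-voom adjusted p = 0.760). Of the 7 elongator fragments tested, 2 had a log2 fold change under 0 for SalB against high fat diet, and neither passed. The lowest, -0.92 (SE 0.53, limma-voom adjusted p = 0.192), was that of 34 to 54 on Met-CAT-1-1 alone.

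Of the elongator fragments whose last base differs from the reference, that with C (T54C, where T is the reference base) averaged 307 ± 71.4 normalised CPM with SalB, 172 ± 50.1 on high fat diet and 99.7 ± 27.0 on normal diet (SD, n = 3 each). It rose by 1.65 with SalB against normal diet (SE 0.44, limma-voom adjusted p = 0.0131), and by total reads the value was 0.84 and did not pass (limma-voom adjusted p = 0.295). No normal diet library reached the minimum of the filter for T54C, which passed through SalB and high fat diet libraries alone. These values against the normal diet describe T54C and support nothing further. That with G (T54G) had 18, 11 and 8 reads with SalB, 17, 5 and 10 on high fat diet, and 0, 2 and 1 on normal diet. Per scaled library size the ratio was 15.4 for SalB against normal diet, with an exact 95% counting interval from 4.87 to 77.9. It rose in this comparison (limma-voom adjusted p = 0.00483). This fragment passed the filter through SalB and high fat diet libraries alone. Its values against the normal diet therefore describe it and support nothing further. For high fat diet against normal diet the ratio was 13.7, with an interval from 4.28 to 69.8, and did not pass (limma-voom adjusted p = 0.175). SalB against high fat diet gave a log2 fold change of 0.13 (limma-voom adjusted p = 0.834), which turned to -0.82 when scaled by total reads. The intervals cover counting error only, since reads amplified by PCR are not independent molecules. In all, reads with a mismatch at their last base made up 17.8 ± 2.12% of Met-CAT reads with SalB, 17.7 ± 1.30% on high fat diet and 15.5 ± 1.41% on normal diet (SD, n = 3 each), and 22.7% to 31.1% of iMet-CAT reads per library. Whether such last bases were in the RNA or arose in library preparation was not tested.

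**Figure D3:**
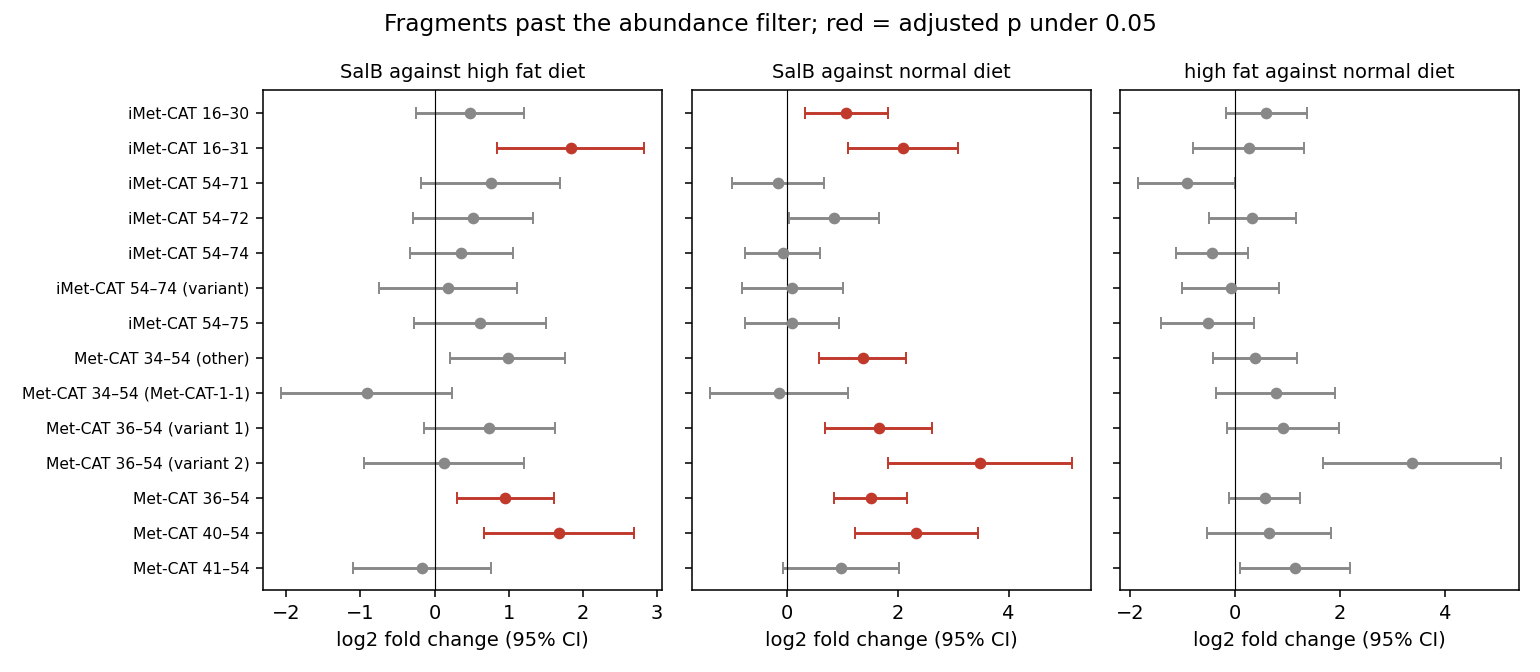
Log2 fold change with its 95% confidence interval for the 14 fragments of iMet-CAT and Met-CAT past the filter, named by their positions, in 3 comparisons, with red for limma-voom adjusted p under 0.05 and grey for the rest. Red points stand at 3 fragments for SalB against high fat diet, 7 for SalB against normal diet and 0 for high fat against normal diet, and scaling by total reads gives 0 called higher and 1 lower for SalB against high fat diet and 3 higher for SalB against normal diet.

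The balance of the 2 start sites within iMet-CAT was set beside the groups, since shares within a tRNA do not depend on the scaling of libraries. The share of iMet-CAT reads that started at 54 was 51.7%, 23.2% and 40.3% with SalB, 52.9%, 52.6% and 52.9% on high fat diet, and 68.9%, 69.0% and 59.5% on normal diet. The groups did not overlap, with SalB lowest and normal diet highest. SalB replicate 1 lay close under the high fat diet libraries, all of which were inside its Wilson 95% interval of 47.5% to 55.9%. The means were 38.4 ± 14.3% with SalB, 52.8 ± 0.131% on high fat diet and 65.8 ± 5.48% on normal diet (SD, n = 3 each). An exact two-sided permutation test gave p = 0.1 for each pair of groups, the smallest that 3 against 3 allows, so no share could pass. Adjusted over the 46 shares compared, the exact permutation p was 0.383 for SalB against high fat diet, 0.287 for SalB against normal diet and 0.46 for high fat diet against normal diet.

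Reads from 16 stood in the other order. Their share was 37.4%, 45.8% and 50.1% with SalB, 37.3%, 42.1% and 36.1% on high fat diet, and 27.0%, 25.2% and 34.4% on normal diet. Both high fat groups stood above the normal diet and overlapped with each other. Among reads from 16, those that ended at 31 made up 43.6 ± 5.81% with SalB, 31.8 ± 2.83% on high fat diet and 33.6 ± 3.33% on normal diet, and those that ended at 30 made up 19.2 ± 4.47%, 30.8 ± 7.76% and 26.2 ± 1.51% (SD, n = 3 each). For both ends the SalB libraries did not overlap with either diet (exact permutation p = 0.1 each), but the gaps were narrow. For ends at 31 the lowest SalB library was at 37.6% and the highest normal diet library at 37.4%. For ends at 30 the highest SalB library was at 22.8% and the lowest normal diet library at 24.6%.

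A neighbouring start set 1 library apart. Reads that started at 14 numbered 9, 226 and 3 with SalB, 8, 2 and 5 on high fat diet, and 3, 3 and 7 on normal diet, so that 226 of 266 came from SalB replicate 2. With those from 15 they made up 22.7% of the iMet-CAT reads of that library (Wilson 95% interval 20.4% to 25.3%) and 1.24% to 3.84% elsewhere. The same library holds the excess of Leu-CAG-3-1 precursor reads, and whether the 2 are linked was not tested.

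Within Met-CAT, reads that aligned to Met-CAT-1-1 alone made up 18.2%, 13.7% and 11.2% with SalB, 18.3%, 22.6% and 20.0% on high fat diet, and 20.8%, 17.2% and 22.9% on normal diet, of the reads that tell the references apart. SalB lay under the high fat diet, with the first SalB library close to the lowest high fat diet library, and overlapped with the normal diet. Reads that started at 40 made up 14.4 ± 4.49% with SalB, 8.72 ± 1.04% on high fat diet and 7.99 ± 2.24% on normal diet (SD, n = 3 each). SalB did not overlap with either diet (exact permutation p = 0.1 each). With reads under 16 bases left out, the differences were -0.307 percentage points against high fat diet and -0.172 against normal diet. The fragment from 40 to 54 has 15 bases and drops out there, so this setting cannot check the share. By starts at 34, the shares were 24.5 ± 1.65% with SalB, 28.6 ± 1.14% on high fat diet and 28.9 ± 1.95% on normal diet (SD, n = 3 each). Met-CAT reads from the first base made up 0.359 ± 0.109% with SalB, 0.694 ± 0.368% on high fat diet and 2.05 ± 0.548% on normal diet (SD, n = 3 each), from 9, 9 and 25 reads. Long Met-CAT reads were rare, and those from 37 to 40 through to the 3′ end numbered 15, 10 and 3 with SalB, 1, 1 and 1 on high fat diet, and 2, 0 and 1 on normal diet.

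**Figure D4:**
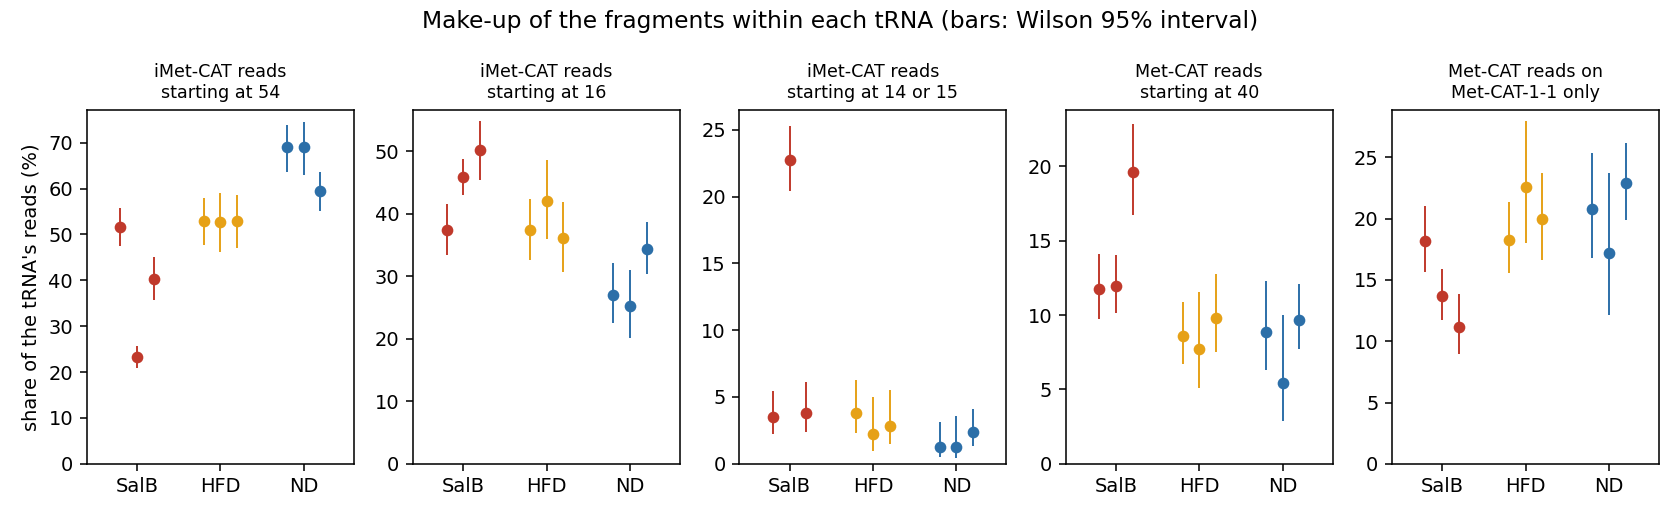
Share of a tRNA's reads in percent, with 1 point per library and its Wilson 95% interval, for iMet-CAT reads that start at 54, at 16, and at 14 or 15, and for Met-CAT reads that start at 40 or align to Met-CAT-1-1 alone, in libraries of high fat diet with SalB (SalB), high fat diet (HFD) and normal diet (ND). The share from 54 is lowest with SalB, at 23.2% to 51.7%, and highest on normal diet, at 59.5% to 69.0%.

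The most read selenocysteine fragments were too rare to test. The 5′ fragment from 1 to 19 (gcccggatgatcctcAGTG) had 2, 20 and 0 reads with SalB, 4, 1 and 1 on high fat diet, and 0, 0 and 1 on normal diet. The form from 1 to 18 (gcccggatgatcctcAGT) had 0, 16 and 0 reads with SalB, 1, 0 and 1 on high fat diet, and 0, 0 and 3 on normal diet. The form from 1 to 15 (gcccggatgatcctc) had 1, 17 and 0 reads with SalB and 0 in all libraries of both diets, where 3 reads would be 23.4 CPM over the high fat diet libraries and 17.8 CPM over the normal diet libraries, before scaling. Against a floor of 3 reads over a group its level with SalB was at least 5.83-fold higher than on high fat diet and at least 7.48-fold higher than on normal diet, with 17 of the 18 reads in 1 library. SalB replicate 2 held 85 of the 146 reads from the first base. Reads at the 3′ end made up 6.84% of SeC-TCA reads with SalB, 8.98% on high fat diet and 22.9% on normal diet on average, from 9, 6 and 15 reads.

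The mitochondrial methionine tRNA, which carries methionine both at the start and inside mitochondrial proteins, was set beside the nuclear ones. Its sum averaged 892 ± 227 normalised CPM with SalB, 503 ± 85.4 on high fat diet and 394 ± 166 on normal diet (SD, n = 3 each). It rose with SalB against normal diet by 1.34 (SE 0.38, limma-voom adjusted p = 0.0269), with 0.62 and no call when scaled by total reads (limma-voom adjusted p = 0.423), and no call without normal diet replicate 1 or 3 (limma-voom adjusted p = 0.0621 and 0.0856). The call was also lost with the replicate number as a block (1.30, limma-voom adjusted p = 0.0607), with only the 6 libraries compared (1.27, limma-voom adjusted p = 0.0940) and with total reads without the Leu-CAG-3-1 precursor (0.87, limma-voom adjusted p = 0.145). Against high fat diet the value was 0.80 and did not pass (limma-voom adjusted p = 0.116), and it passed without SalB replicate 2 (1.18, limma-voom adjusted p = 0.0147) or normal diet replicate 3 (0.91, limma-voom adjusted p = 0.0463).

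Over the 9 libraries, the families whose log2 CPM ran most like each sum, of 102 compared, are given by Pearson's r as a description. For iMet-CAT they were mitochondrial Ser-GCT (r = 0.965), Leu-TAA (0.947) and the Ile-TAT precursor (0.937). For Met-CAT they were 3 sets of reads shared between families, Lys-CTT/Lys-TTT (0.945), Lys-CTT/Sup-TCA (0.911) and Ala-CGC/Glu-CTC (0.860). For SeC-TCA they were Ala-TGC (0.936) and the precursors of Ala-AGC (0.932) and Leu-CAG (0.914). All points share the scaling of their library, and the high level of SalB replicate 2 enters every value.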

How the data were processed

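Total RNA of serum was isolated with TRIzol, ligated to adapters, copied, amplified, size selected and sequenced on an Illumina NextSeq 500, per the labels' protocols. The submitters' processing notes list FastQC, cutadapt, Bowtie and edgeR and the build mm10, without versions or roles. Each deposited file lists the alignments of 1 library to tRNA references, with identical reads collapsed by the authors. How often a sequence was read is given by a number in its name, and the deposited columns used beside it are the alignment offset and the mismatch field, which are neither counts nor levels. The files hold only reads of 14 to 40 bases aligned to tRNAs, so their totals are not the depth of the libraries, and alignments had at most 1 mismatch.

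Each read was counted once. Because these counts form no column, the quasi-likelihood count test was not used, and limma-voom (limma 3.58.1, R 4.3.3) was, in 1 fit over 9 libraries with trimmed-mean scaling (trims 0.3 and 0.05), two-sided, adjusted by Benjamini and Hochberg over the whole table and called at 0.05. The filter kept features with 10 reads at the median depth of 44415 in at least 3 libraries and at least 15 reads in all, which left 733 of 41240 fragments, 103 tRNA sums and 170 origin sums. The scaling was computed once on the fragments. Precursor references carry 40 leading bases. Shares were compared by exact permutation (20 partitions). The fits were tested on simulated data. Within groups, libraries differed by more than sampling noise (chi-square per degree of freedom 2.76 to 54.0). Replicate numbers showed no sign of pairing the libraries, which 3 libraries a group cannot settle.

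The rule named the 3 sums and their origins, the 4 fragments of highest mean level in each tRNA, every called fragment, and the 3 most read fragments of SeC-TCA. Other fragments and read classes, such as the start sites, were chosen after their values were seen. Members, lists and tests were chosen with earlier results of these data known. Positions refer to tRNA references, and chromosomal places are not given, as no genome was at hand. Alternatives were other scalings, filters, limma on log2 values (reads at median depth, pseudocount 1), read lengths, mismatch and sharing rules, the replicate block, and each library left out. The sequence of 1 elongator reference is not reported here.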

Additional observations from a re-analysis of the deposited data

Results flagged for a closer look

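Reads on precursor references of the initiator tRNA, outside the rule for the 3 tRNAs, stood higher in SalB libraries than in normal diet controls under the main scaling. The 73 reads of the SalB libraries gave levels from 203 to 815 normalised CPM, and the 32 reads of the normal diet libraries gave 142 to 168, so the lowest SalB level of 203 lay above every normal diet level. Of all tRNA sums tested, 41.7% stood higher without overlap in this comparison. SalB replicate 2 held 52 of the 73 reads. The high fat diet libraries, with 27 reads, stood at 135 to 211. In CPM of tRNA reads without further scaling, the SalB libraries at 177 to 333 overlapped with the normal diet libraries at 161 to 209. Of all 132 such reads, 56 spanned the mature 3′ end, 44 began at the first base after it, 29 lay in or across the 5′ leader and 3 began later in the trailer. Their number is small. Their sum was among the 103 tRNA sums tested by limma-voom, but its own result is not given here.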

How the results depend on the processing

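With SalB against high fat diet, the sums gave, under total tRNA reads, 0.31 for iMet-CAT (limma-voom adjusted p = 0.526) and a turned -0.010 for Met-CAT (0.978). Under total reads without the Leu-CAG-3-1 precursor they gave 0.60 (0.0953) and 0.28 (0.428), and with only the 6 libraries compared 1.00 (0.0726) and 0.68 (0.0726). With SalB against normal diet, total reads gave 0.35 for iMet-CAT (0.423) and 0.69 for Met-CAT (0.178). Without the precursor iMet-CAT gave 0.66 (0.0770), and with 6 libraries 1.02 (0.0775). For high fat diet against normal diet, 6 libraries gave a call for Met-CAT (0.72, 0.0494), and reads of 16 to 40 bases turned iMet-CAT to -0.024. Calls on fragments of these tRNAs numbered, without a filter, 13 (12 higher, 1 lower) with SalB against high fat diet, 25 (all higher) with SalB against normal diet, and 1 (higher) for high fat diet against normal diet. Under total reads they numbered 1 (lower, with 0 higher) and 3 (higher) in the comparisons with SalB, and without the precursor 2 (1 higher, 1 lower) and 4 (higher). The cause of these shifts was not tested beyond the scaling itself, which moved the median of all fragments by -0.52 and -0.48 without the precursor.

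With each library left out in turn, calls on fragments ran from 1 to 4 and from 4 to 8 in the comparisons with SalB. The iMet-CAT sum ran from 0.93 to 1.35 against high fat diet, from 0.95 to 1.39 against normal diet and from -0.20 to 0.13 between diets. Met-CAT ran from 0.65 to 0.91 against high fat diet, and SeC-TCA from 0.57 to 1.85 against normal diet. Both calls against high fat diet were lost without each high fat diet library (adjusted p from 0.0594 to 0.0867), and iMet-CAT against normal diet without normal diet replicate 3 (0.0712). The lowest counts came without high fat diet replicate 2 (1) and, against normal diet, without SalB replicate 2 or normal diet replicate 3 (4 each).

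Other directions turned as follows, none in a call. Under total reads, SalB against high fat diet gave -0.15 for 3′ iMet-CAT, -0.42, -0.26 and -0.31 for its fragments 54 to 74, 54 to 72 and 16 to 30, and -0.10 and -0.82 for T54C and T54G. Without the precursor it gave -0.13, -0.016 and -0.42 for fragments 54 to 74, 16 to 30 and T54G. With SalB against normal diet 3′ iMet-CAT gave -0.45 under total reads and -0.19 without the precursor, and fragment 54 to 74 gave 0.0011 with 16 to 40 bases and 0.060 without mismatches. With 1 library left out, fragment 54 to 72 ran from -0.034 to 0.55 between diets, 41 to 54 from -0.53 to 0.12 and T54G from -0.0073 to 0.30 with SalB against high fat diet, and 54 to 74 from -0.29 to 0.13 with SalB against normal diet. Shares in percentage points turned with 16 to 40 bases. For SalB against high fat diet Met-CAT starts gave -0.307 at 40 and 0.284 at 41, and against normal diet -0.172 and 0.0600. Between diets iMet-CAT ends at 31 gave 2.59, Met-CAT starts at 34 gave 0.578 (0.383 without mismatches) and at 41 -0.224. Fragments 40 to 54 and 41 to 54, of 15 and 14 bases, drop out with 16 to 40 bases. That setting therefore cannot check the shares of starts at 40 and 41. Left-out ranges between diets were -3.06 to 0.105 for ends at 31, -1.26 to 0.681 for starts at 34, -0.535 to 1.58 for starts at 40 and -1.55 to 1.32 for Met-CAT-1-1 alone. The share ending at 30 could not be recomputed with 16 to 40 bases, as those reads have 15.

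With the replicate number as a block, the calls on fragments of these 3 tRNAs stayed at 0, 3 and 7, and Met-CAT with SalB against high fat diet gave 0.79 (limma-voom adjusted p = 0.0373). Correlations of deviations ran from -0.326 to 0.148 between same-numbered libraries of different groups and from -0.251 to 0.252 between differently numbered ones. With 3 libraries a group, this cannot settle whether the numbers are a pairing. SeC-TCA, at 15 to 165 reads a library, is limited by depth.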
